A study of Mus musculus with 12 samples.

Results

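The response of macrophages to CpG DNA alone was taken from 6 of the 12 bead arrays of the series, namely the 3 arrays of CpG-stimulated cells and the 3 arrays of untreated cells, chosen by their labels. Every array held messenger RNA of RAW264.7 cells, a line of mouse macrophages derived from a virus-induced tumour, which stands here as 1 line in culture and not as tissue macrophages. Untreated cells (Non treatment) were grown in DMEM with serum and received no agent, and CpG cells received CpG at 10 µg/ml for 6 h in the same medium. The labels call the 3 replicates of a group biological, and do not say how long the untreated cells were kept alongside. Arrays of cells given gefitinib, 3 without and 3 with later CpG, entered the model that estimates the spread and are named below only for probes detected in 1 group alone.

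CpG oligonucleotides copy the unmethylated CpG motifs of bacterial DNA. In macrophages they are sensed in endosomes by TLR9, whose adaptor MyD88 activates the kinases that release NF-kB from its IkB inhibitors and that phosphorylate AP-1 and IRF factors. Those factors start a primary wave of cytokines, chemokines and feedback inhibitors, and interferon beta secreted in that wave drives a later wave of interferon-stimulated genes. The gene of TLR9 itself was not analysed here.

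The labelled cell type was checked against its markers. Of 9 macrophage markers with a probe, 7 were detected on all 6 arrays (Ptprc, Adgre1, Lyz2, Spi1, Fcgr1, Cd14 and Tyrobp), Itgam on the 3 CpG arrays alone and Mertk on none. Of 11 lymphocyte markers, 9 were detected on 0 arrays, and so were 9 of 11 epithelial, fibroblast and endothelial markers. The exceptions were Cd3d on 2 untreated arrays and Cd79b on 1, and Kdr on 1 array of each group. The epithelial marker Cdh1 was detected on 3 untreated and 2 CpG arrays. Of 10 granulocyte and mast cell markers 8 were at 0, the defining Mpo and Elane among them, while S100a8 was detected throughout and rose by 2.89 ± 0.18 (adjusted p = 6.65e-08). The summed normalised intensity of that granulocyte list lay between 370 and 446 on untreated arrays and between 1385 and 2091 on CpG arrays. S100a8 was the only member of the list detected on all 6 arrays, and Fcer1a was detected on 1 CpG array alone. Whether such cells had a part in other results was not tested. Detected probes numbered 10757 to 11181 per array. The lowest correlation of arrays within a group was 0.984 (CpG arrays 2 and 3, which also lay apart on an axis with 12.2% of the variance of the 6 arrays). The root mean square difference over genes, averaged over pairs of arrays, was 0.282 (untreated) or 0.331 (CpG) log2 units within a group. Between the groups it was 0.619. In bulk RNA, fewer cells expressing a gene and less RNA per cell cannot be told apart.

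Across gene classes, increases took their highest shares among secreted mediators, and decreases theirs among genes of DNA replication and repair. Of 8101 genes tested, 25.4% changed, 10.0% upward and 15.3% downward, at an adjusted p of 0.05 over all genes (limma). Changes of at least 2-fold were upward in 3.31% of genes and downward in 1.46%. Among 88 measured secreted and effector genes 44 rose and 10 fell, with a median log2 change of 0.50 against -0.06 over all genes. Among 234 genes of signalling 67 rose and 39 fell (median 0.11), and among 207 surface receptor and adhesion genes 53 rose and 36 fell (median 0.05). The 246 transcription and chromatin factors split into 47 that rose and 41 that fell (median -0.03), and 31 of them rose where each array was scaled to its median. The 445 metabolic genes held 44 that rose and 76 that fell (median -0.12), shares of 9.89% and 17.1% that lay near those over all genes. The 226 genes of replication, cell cycle, cell death, cytoskeleton and ion transport held 38 that rose, or 24 under median scaling, and 63 that fell (median -0.13). Median scaling itself moved the median of all genes to -0.12, so that a share of the small changes depended on the scaling. These shares are of measured genes, since 1447 of the 2100 listed genes with a probe passed the detection filter. A gene seen with CpG alone could pass that filter through the CpG arrays, which can raise the share of increases.

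**Figure D1:**
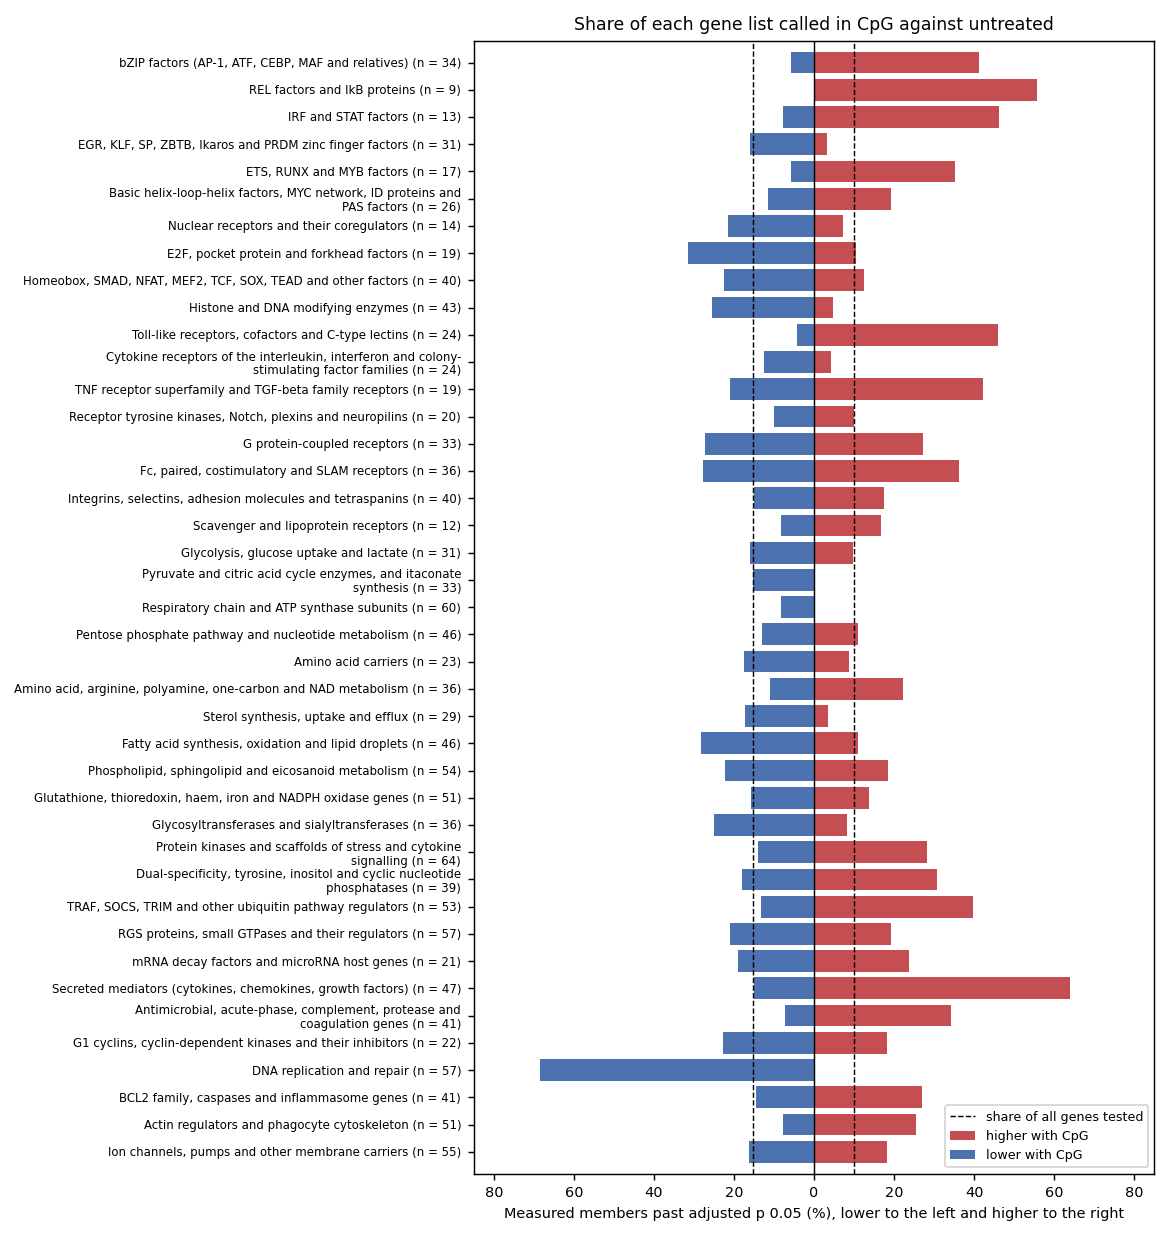
Share of the measured members of each gene list past an adjusted p of 0.05 in CpG against untreated, with higher genes drawn to the right and lower genes to the left (percent of n measured members, 3 arrays per group). Dashed lines mark the shares over all 8101 genes, 10.0% up and 15.3% down. Secreted mediators extend farthest to the right and DNA replication and repair farthest to the left.

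Log2 levels below are normalised intensities, given for replicates 1, 2 and 3, and changes are given ± SE with 3 arrays per group. Where a probe was detected on no array of a group, the fold is a lower limit, computed against the dimmest detected probe of each array, and is written as "at least". Its adjusted p is that of the fit. Detection in 1 group alone, with CpG alone or on untreated arrays alone, refers to the untreated and CpG arrays. Arrays with gefitinib may have detected such a probe, as they did for Map2k6. Levels of different probes are not compared with each other. Of all 8101 genes tested, 1146 had every CpG array above every untreated array, and 1834 had every CpG array below. Separate groups were thus common with 3 arrays each. Counts of list members that rose or fell are to be read beside the 10.0% and 15.3% over all genes.

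Among the factors that carry the signal to the genome, 5 of 9 measured REL and IkB genes rose and 0 fell, with a median log2 change of 0.97. Of those 5, 4 encode IkB proteins and 1 a DNA-binding subunit. Nfkbiz encodes the nuclear protein IkB-zeta, which NF-kB needs at many late cytokine genes. Its log2 level was 6.88, 7.32 and 7.21 on the untreated arrays and 12.11, 12.12 and 11.74 on the CpG arrays. The groups lay far apart, and Nfkbiz rose by 4.86 ± 0.15 (adjusted p = 5.91e-11), the largest increase among the transcription factors measured. Nfkbia encodes IkB-alpha, the inhibitor that holds NF-kB in the cytoplasm and that NF-kB itself re-induces. Its level was 8.96, 8.60 and 8.45 on the untreated arrays and 11.04, 11.10 and 11.18 on the CpG arrays. All CpG arrays lay above all untreated arrays, and the gene rose by 2.44 ± 0.19 (adjusted p = 5.47e-07). Rel, the subunit c-Rel, had levels of 5.22, 5.10 and 5.19 on the untreated arrays and 6.49, 6.44 and 6.39 on the CpG arrays. The groups did not overlap, and Rel rose by 1.27 ± 0.13 (adjusted p = 6.40e-06). Bcl3, a nuclear IkB protein, was detected with CpG alone and was at least 2.43-fold higher with CpG (adjusted p = 0.000189), and Nfkbid, the gene of IkB-NS, rose by 0.97 ± 0.13 (adjusted p = 7.05e-05). The subunit genes Rela and Relb did not pass the test (log2 changes -0.02 ± 0.14 and 0.01 ± 0.27), nor did the inhibitor genes Nfkbib (0.25 ± 0.16) and Nfkbie (-0.02 ± 0.20).

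The promoters of these genes can be read directly. The RefSeq promoters of Nfkbia and Rel are shown because each holds 1 match to the kB-like motif (GGG and TTTCC with 2 bases between them) on the gene's antisense strand, printed here 5′ to 3′ on the gene's strand from 250 bases before the start to 50 after, with the match in capitals.
Nfkbia, GRCm38.p6, chr12:55492598-55492897, minus strand: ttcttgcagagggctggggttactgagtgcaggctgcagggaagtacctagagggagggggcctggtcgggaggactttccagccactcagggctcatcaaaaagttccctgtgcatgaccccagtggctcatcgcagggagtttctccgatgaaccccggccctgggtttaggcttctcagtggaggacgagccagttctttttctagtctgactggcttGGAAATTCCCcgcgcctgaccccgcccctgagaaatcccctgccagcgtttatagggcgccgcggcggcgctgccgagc
Rel, GRCm38.p6, chr11:23770920-23771219, minus strand: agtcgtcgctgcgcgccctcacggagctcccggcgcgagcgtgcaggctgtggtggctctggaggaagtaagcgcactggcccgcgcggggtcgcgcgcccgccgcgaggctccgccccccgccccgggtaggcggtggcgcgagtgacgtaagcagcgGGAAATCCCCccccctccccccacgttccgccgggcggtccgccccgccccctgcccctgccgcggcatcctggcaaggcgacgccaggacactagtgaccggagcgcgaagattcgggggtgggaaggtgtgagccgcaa
The promoter of Stat2 is shown for its match to the interferon-response-like motif (GAAA and GAAA with 2 bases between them), on the antisense strand, and that of E2f2, a gene that fell, for its match to the E2F-like motif TTTGGCGC.
Stat2, GRCm38.p6, chr10:128270248-128270547, plus strand: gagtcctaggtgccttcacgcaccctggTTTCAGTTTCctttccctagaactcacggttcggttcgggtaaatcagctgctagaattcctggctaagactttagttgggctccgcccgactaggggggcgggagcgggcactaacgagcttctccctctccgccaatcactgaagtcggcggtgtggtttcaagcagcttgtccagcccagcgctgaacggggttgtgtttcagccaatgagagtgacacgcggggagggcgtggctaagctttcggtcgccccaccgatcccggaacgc
E2f2, GRCm38.p6, chr4:136172024-136172323, plus strand: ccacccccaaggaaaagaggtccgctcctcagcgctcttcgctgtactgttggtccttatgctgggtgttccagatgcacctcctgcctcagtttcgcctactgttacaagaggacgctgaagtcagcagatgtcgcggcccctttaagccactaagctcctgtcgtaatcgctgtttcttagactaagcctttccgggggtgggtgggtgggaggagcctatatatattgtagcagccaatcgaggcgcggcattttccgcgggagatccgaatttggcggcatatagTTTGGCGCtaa

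Motifs were counted in promoters of genes that rose or fell at least 2-fold, searching both strands. Of the 268 genes that rose, 215 had a RefSeq promoter (276 promoters), and of the 118 that fell, 91 had one (130 promoters). Shares are given for genes that rose, for genes that fell, for the 8536 promoters of all tested genes and for all 32851 promoters. The kB-like motif was found in 5.07%, 1.54%, 1.72% and 1.63%. The interferon-response-like motif was found in 13.4%, 5.38%, 3.20% and 3.44%. The AP-1-like motif TGANTCA was found in 11.6%, 5.38%, 5.34% and 7.81%. The cyclic AMP response element TGACGTCA was found in 1.81%, 1.54%, 3.09% and 1.79%. The E2F-like motif was found in 0.725%, in 2.31%, which are 3 promoters, in 0.914% and in 0.514%. Different motifs shared bases in 3 of the 32851 promoters. Such matches are descriptions of sequence and not binding sites.

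Basic leucine zipper genes include the AP-1 factors that mitogen-activated kinases switch on. Of 34 measured 14 rose and 2 fell, with a median log2 change of 0.26. Leaving out untreated array 1, untreated array 2 or CpG array 3 left 1 that fell. Junb, an AP-1 subunit, had levels of 8.25, 8.41 and 8.45 on the untreated arrays and 9.91, 10.42 and 10.01 on the CpG arrays. No value was shared between the groups, and Junb rose by 1.74 ± 0.13 (adjusted p = 3.95e-07). Atf3, a stress-induced factor that restrains inflammatory genes in macrophages, had levels of 7.47, 7.79 and 7.84 on the untreated arrays and 8.86, 9.25 and 9.32 on the CpG arrays. Levels with CpG were all above those without, and Atf3 rose by 1.45 ± 0.14 (adjusted p = 5.78e-06). Fosl1, the gene of the AP-1 subunit Fra-1, was detected on no untreated array and was at least 3.67-fold higher with CpG (adjusted p = 3.85e-08). Fos rose by 1.21 ± 0.17. Batf2, which is known to work with IRF factors, and Creb5 were also detected with CpG alone, at least 1.52-fold and at least 1.71-fold higher. Xbp1, a factor of the unfolded protein response, had a log2 change of -0.26 ± 0.13 and did not pass the test. Dbp, a clock-output factor of this family, fell by 0.68 ± 0.14 (adjusted p = 0.00233).

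Interferon regulatory factors and STAT proteins carry interferon signals to genes. The list of these factors also holds Irf2bp1 and Irf2bpl, which are neither IRF nor STAT genes. Of its 13 measured members 6 rose and 1 fell, or 2 without CpG array 2. The member that fell was Irf2bp1. Irf7, the factor that amplifies type I interferon production, had levels of 4.42, 4.43 and 4.43 on the untreated arrays and 7.74, 7.96 and 7.98 on the CpG arrays. No untreated array detected it and every CpG array did, and Irf7 was at least 7.82-fold higher with CpG (adjusted p = 3.99e-10). Irf9 and Stat2 encode partners in the complex that binds interferon-stimulated genes. The level of Irf9 was 7.60, 7.45 and 7.34 on the untreated arrays and 9.50, 9.41 and 9.24 on the CpG arrays. Every CpG array lay above every untreated array, and it rose by 1.92 ± 0.10 (adjusted p = 1.42e-08). The level of Stat2 was 5.31, 5.43 and 5.42 on the untreated arrays and 6.80, 7.06 and 6.68 on the CpG arrays. There was no overlap between groups, and Stat2 rose by 1.46 ± 0.14 (adjusted p = 3.45e-06). Stat3 rose by 0.78 ± 0.15 by its brightest probe, while another of its probes was not called. Irf3, Irf2 and Irf2bpl did not pass the test (log2 changes -0.03 ± 0.13, 0.03 ± 0.13 and 0.24 ± 0.13).

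Factors of several other families rose. Of 26 helix-loop-helix genes 5 rose and 3 fell. Of 17 ETS, RUNX and MYB genes 6 rose, with 3 without untreated array 3, 2 without CpG array 1 and 1 under median scaling. Pou2f2, the gene of Oct-2, known from B cells, had levels of 5.97, 6.08 and 5.55 on the untreated arrays and 8.08, 8.07 and 7.68 on the CpG arrays. Values of the groups were fully separate, and it rose by 2.07 ± 0.18 (adjusted p = 1.69e-06). Kdm6b encodes the histone demethylase JMJD3, which removes a repressive methyl mark from histone H3. Its levels were 7.03, 6.76 and 6.61 on the untreated arrays and 8.63, 8.45 and 7.90 on the CpG arrays. The lowest and highest arrays of the groups stayed apart, and Kdm6b rose by 1.52 ± 0.16 (adjusted p = 1.42e-05). Id1, an inhibitor of basic helix-loop-helix factors, rose by 1.85 ± 0.29, and the zinc finger gene Plagl2 by 1.52 ± 0.13. Cited2, a partner of the coactivators CBP and p300, rose by 1.32 ± 0.15, and Ets2, an ETS factor downstream of ERK, by 1.28 ± 0.11. Hif1a, the oxygen-regulated factor that also supports macrophage glycolysis, rose by 0.80 ± 0.14 (adjusted p = 0.00111). Arntl, the clock gene that encodes BMAL1, rose by 1.08 ± 0.14 (adjusted p = 9.98e-05), from levels of 6.02, 6.27 and 6.48 on the untreated arrays and 7.43, 7.33 and 7.25 on the CpG arrays. The bromodomain gene Brd2 rose by 0.73 ± 0.10.

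Other transcription and chromatin factors fell. Of 31 measured EGR, KLF, ZBTB and related zinc finger genes 5 fell, or 3 without untreated array 3 or CpG array 2. In the same list 1 rose, against 2 without untreated array 2 or CpG array 1 and 4 without CpG array 2 or under cyclic loess. Of 19 E2F, pocket protein and forkhead genes 6 fell and 2 rose, with 1 that rose without any of the untreated arrays or CpG array 3 and 0 without CpG array 1. Of 43 histone- and DNA-modifying enzymes 11 fell and 2 rose. In the zinc finger list the share that fell, 16.1%, lay near the 15.3% over all genes. In the E2F and enzyme lists that share was 31.6% and 25.6%. Bhlhe40, a helix-loop-helix repressor that also acts on clock genes, had levels of 8.70, 8.63 and 8.38 on the untreated arrays and 6.91, 6.86 and 6.94 on the CpG arrays. Without exception the CpG arrays were lower, and Bhlhe40 fell by 1.67 ± 0.13 (adjusted p = 6.69e-07). Zfpm1, the gene of the GATA cofactor FOG-1, had levels of 9.29, 9.18 and 9.26 on the untreated arrays and 7.76, 7.72 and 8.09 on the CpG arrays. The groups did not overlap, and it fell by 1.39 ± 0.12 (adjusted p = 2.17e-06). Klf9 and Klf13 encode Krüppel-like factors. Klf9 fell by 1.31 ± 0.27, and Klf13 fell by 0.96 ± 0.18. E2f2, an E2F factor of the cell cycle, had levels of 8.34, 8.97 and 8.98 on the untreated arrays and 7.67, 6.71 and 8.03 on the CpG arrays. CpG array 2 was the lowest, and E2f2 fell by 1.29 ± 0.27 (adjusted p = 0.00325).

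Further factors of growth and differentiation fell. Of 40 homeobox, SMAD, NFAT and other factors 9 fell, or 5 without untreated array 2, and 5 rose, with 2 without untreated array 2 and under median scaling and 3 without untreated array 1 or CpG array 1. Of 14 nuclear receptors and coregulators 3 fell. Mybl2, which encodes B-MYB, fell by 1.26 ± 0.11, and Tfdp2, the dimer partner of E2F proteins, fell by 1.17 ± 0.14. Nfatc1, the factor that directs osteoclast formation from macrophage precursors, had levels of 7.23, 7.12 and 7.29 on the untreated arrays and 6.23, 5.95 and 5.88 on the CpG arrays. No value was shared between the groups, and Nfatc1 fell by 1.19 ± 0.13 (adjusted p = 1.15e-05). Tsc22d3, the gene of the glucocorticoid-induced leucine zipper GILZ, had levels of 8.49, 8.15 and 8.16 on the untreated arrays and 7.02, 6.91 and 7.30 on the CpG arrays. Levels with CpG were all below those without, and it fell by 1.19 ± 0.14 (adjusted p = 2.32e-05). Each of these 4 genes had another probe that was not called. Nfix fell by 1.07 ± 0.12, and Lyl1, a helix-loop-helix factor of blood cells, fell by 0.96 ± 0.13. Ppargc1b, the coactivator PGC-1-beta of mitochondrial genes, fell by 1.03 ± 0.20 (adjusted p = 0.00217). The retinoic acid receptor gene Rarb was detected on all untreated arrays and no CpG array, and was at least 1.48-fold lower with CpG (adjusted p = 0.00407). Among chromatin genes, Dnmt1, the maintenance DNA methyltransferase, fell by 0.70 ± 0.12 (adjusted p = 0.000821), and Dnmt3b, a methyltransferase that sets new marks, fell by 0.57 ± 0.12.

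**Figure D2:**
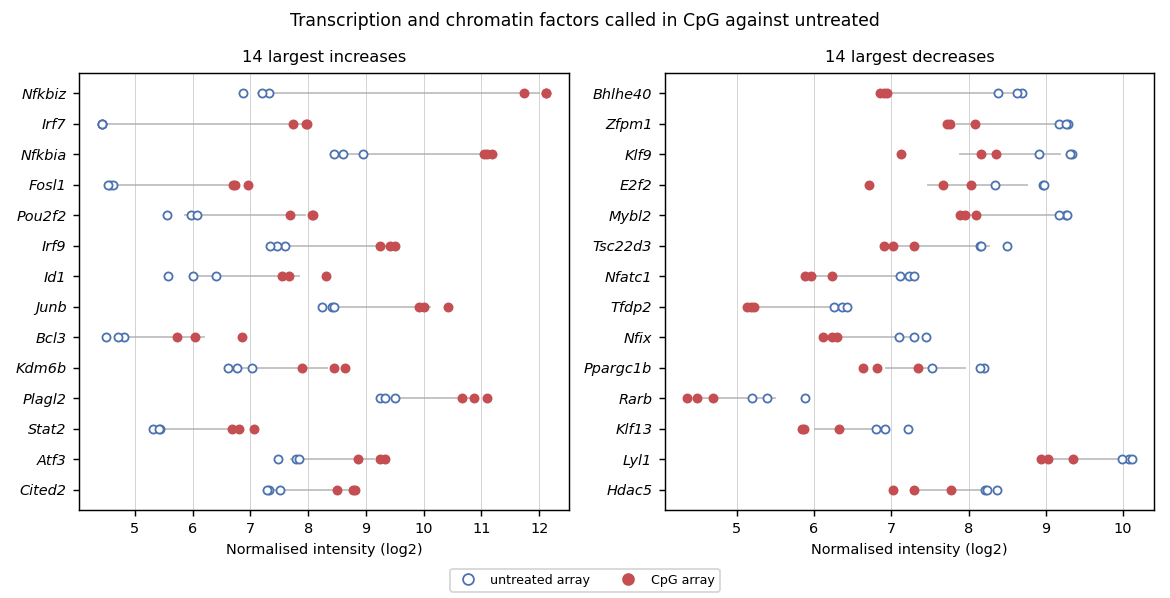
Log2 normalised intensity of the 14 transcription and chromatin factors with the largest increase (left) and the 14 with the largest decrease (right), among those called, in CpG against untreated. Each point is 1 array, open for untreated and filled for CpG (3 each), and a grey line joins the group means. Nfkbiz lies between 6.88 and 7.32 on untreated arrays and between 11.74 and 12.12 on CpG arrays. All genes shown, picked as the largest called changes, have separate groups.

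Pattern-recognition receptors sense microbes and damaged cells. Of 24 measured Toll-like receptor, cofactor and C-type lectin genes 11 rose, while 1 fell, or 2 without CpG array 3, with a median log2 change of 0.30, or 0.20 with undetected genes at their bounds. Clec4e encodes Mincle, a receptor for mycobacterial glycolipid and for dying cells. Its levels were 9.45, 9.30 and 9.55 on the untreated arrays and 11.16, 11.32 and 11.27 on the CpG arrays. Every CpG array lay above every untreated array, and Clec4e rose by 1.82 ± 0.14 (adjusted p = 4.86e-07). Clec2d, known as a ligand of natural killer cell receptors, was detected on CpG arrays alone and was at least 2.94-fold higher with CpG (adjusted p = 2.96e-06). Cd14, the co-receptor for lipopolysaccharide and CpG DNA, rose by 0.95 ± 0.09 (adjusted p = 4.87e-06), and Tlr2, which senses bacterial lipoproteins, by 0.67 ± 0.15 (adjusted p = 0.005). Clec4d, a lectin partner of Mincle, rose by 0.89 ± 0.13. Clec10a, a galactose-binding lectin of alternatively activated macrophages, was detected on untreated arrays alone and was at least 1.62-fold lower with CpG (adjusted p = 0.000528). Tlr7, the endosomal receptor for single-stranded RNA, had a log2 change of -0.08 ± 0.11 and did not pass the test, nor did Unc93b1 (0.23 ± 0.17), the chaperone of endosomal Toll-like receptors.

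The death receptor gene Fas and the costimulatory receptor gene Cd40 had some of the largest increases among receptors. Of 19 measured TNF and TGF-beta family receptors 8 rose and 4 fell, and 5 rose without untreated array 1, untreated array 2 or CpG array 2 and under median scaling. Cd40, the receptor through which T cells license macrophages, had levels of 5.14, 4.56 and 4.43 on the untreated arrays and 8.75, 8.26 and 8.83 on the CpG arrays. Untreated array 1 alone of its group detected it, and Cd40 rose by 3.91 ± 0.18 (adjusted p = 2.79e-09). Fas, the death receptor, had levels of 4.62, 4.55 and 4.86 on the untreated arrays and 8.08, 8.07 and 8.27 on the CpG arrays. No untreated array detected it, and Fas was at least 9.30-fold higher with CpG (adjusted p = 1.90e-10). Tnfrsf1b, the second TNF receptor, was also detected on CpG arrays alone and was at least 2.71-fold higher with CpG (adjusted p = 3.17e-08). Tgfbr1, the signalling chain of the TGF-beta receptor, had levels of 10.83, 10.74 and 10.79 on the untreated arrays and 9.38, 9.19 and 9.21 on the CpG arrays. There was no overlap between groups, and Tgfbr1 fell by 1.53 ± 0.11 (adjusted p = 2.21e-07). Acvr2b, an activin receptor gene, fell by 0.77 ± 0.17. Tnfrsf11a, the RANK receptor of osteoclast precursors, did not pass the test (-0.26 ± 0.17).

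The list of G protein-coupled receptors moved both ways, with 9 of 33 measured members that rose and 9 that fell. Those that fell include Avpi1, which encodes no such receptor. Fpr2, a receptor for formylated peptides and serum amyloid, was detected on no untreated array. Its levels were 4.33, 4.28 and 4.31 on the untreated arrays and 7.60, 6.78 and 7.32 on the CpG arrays. The CpG arrays all detected it, and Fpr2 was at least 4.95-fold higher with CpG (adjusted p = 1.45e-08). Gpr18 was likewise at least 4.39-fold higher with CpG (adjusted p = 1.45e-08). Calcrl, the receptor that forms the adrenomedullin and calcitonin gene-related peptide receptors, had levels of 5.27, 5.04 and 4.97 on the untreated arrays and 6.97, 7.23 and 6.51 on the CpG arrays. Values of the groups were fully separate, and Calcrl rose by 1.81 ± 0.18 (adjusted p = 5.55e-06). Adgre1, the gene of the macrophage antigen F4/80, rose by 1.52 ± 0.20 (adjusted p = 6.95e-05). Among those that fell, Cxcr4 had levels of 8.47, 8.37 and 8.48 on the untreated arrays and 4.84, 5.66 and 4.79 on the CpG arrays. It was detected on all untreated arrays and on 1 of 3 CpG arrays, and CpG array 2 was the highest of those 3. Gpr183, the oxysterol receptor EBI2 that guides leukocyte migration, had levels of 9.61, 9.39 and 9.36 on the untreated arrays and 8.14, 8.16 and 8.23 on the CpG arrays. The lowest and highest arrays of the groups stayed apart, and Gpr183 fell by 1.28 ± 0.10 (adjusted p = 8.47e-07). Cx3cr1, the fractalkine receptor, fell by 0.78 ± 0.18. The purinergic receptor gene P2ry12, detected on 2 of 3 CpG arrays, fell by 0.95 ± 0.17, and P2ry13, detected on none, was at least 1.23-fold lower with CpG (adjusted p = 0.00468).

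Receptors for antibody and for inhibitory ligands moved both ways. Of 36 measured Fc, paired, costimulatory and SLAM receptors 13 rose and 10 fell. Without CpG array 1, 5 fell, and 6 fell without untreated array 3 or CpG array 3 and under median scaling. Fcgr4, an activating Fc receptor for IgG, had levels of 7.66, 7.74 and 7.81 on the untreated arrays and 8.99, 9.11 and 9.46 on the CpG arrays. Without exception the CpG arrays were higher, and Fcgr4 rose by 1.45 ± 0.18 (adjusted p = 5.12e-05). Fcgr2b, the inhibitory Fc receptor, rose by 1.40 ± 0.11 (adjusted p = 9.35e-07). Fcgr3, another activating member of the family, had levels of 9.23, 9.65 and 9.60 on the untreated arrays and 7.95, 8.01 and 8.35 on the CpG arrays. The groups did not overlap, and Fcgr3 fell by 1.39 ± 0.15 (adjusted p = 1.68e-05). Members of this family are alike in sequence, so that probes may share signal. Siglec1, the sialic acid receptor known as sialoadhesin, was at least 5.26-fold higher with CpG (adjusted p = 3.64e-09). Cd274, which encodes the checkpoint ligand PD-L1, rose by 1.28 ± 0.15 (adjusted p = 3.52e-05), and Cd47, the signal that restrains phagocytosis, by 1.27 ± 0.12. Lilrb4a, an inhibitory leukocyte receptor, rose by 1.47 ± 0.17.

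Trem2, the lipid-sensing receptor of tissue macrophages and osteoclast precursors, had levels of 11.92, 11.77 and 11.66 on the untreated arrays and 10.54, 11.09 and 10.67 on the CpG arrays. No value was shared between the groups, and Trem2 fell by 1.01 ± 0.14 (adjusted p = 0.000158). Havcr2, the gene of the checkpoint receptor TIM-3, fell by 1.02 ± 0.11 (adjusted p = 1.85e-05), and Cd300c, an activating paired receptor, fell by 1.0 ± 0.15. Tyrobp, the adaptor through which TREM2 signals, had a log2 change of -0.30 ± 0.15 and did not pass the test. Of 24 interleukin, interferon and colony-stimulating factor receptors 1 rose, or 0 without untreated array 3 or CpG array 2, and 3 fell. Ifnar2, a chain of the type I interferon receptor, was among those and fell by 0.64 ± 0.13 (adjusted p = 0.00276).

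Of 40 integrins, selectins, adhesion molecules and tetraspanins 7 rose and 6 fell, or 3 without untreated array 3. Itga5, a chain of the fibronectin receptor, had levels of 6.48, 6.45 and 6.53 on the untreated arrays and 8.04, 8.49 and 7.77 on the CpG arrays. Levels with CpG were all above those without, and Itga5 rose by 1.61 ± 0.17 (adjusted p = 1.18e-05). Cd44, the hyaluronan receptor, rose by 1.24 ± 0.11 (adjusted p = 3.02e-06), and Itgam, the CD11b chain, was detected on CpG arrays alone and was at least 1.21-fold higher with CpG (adjusted p = 0.000632). Cytip, which encodes a cytosolic regulator of integrin adhesion, had levels of 8.59, 8.34 and 8.43 on the untreated arrays and 6.06, 6.0 and 6.36 on the CpG arrays. All CpG arrays were lower. The tetraspanin gene Tspan14 fell by 0.89 ± 0.11 (adjusted p = 4.41e-05), and the integrin chain gene Itgb5 fell by 0.81 ± 0.14. Sort1, the sorting receptor sortilin, fell by 1.03 ± 0.10 (adjusted p = 6.81e-06) by its brightest probe, and another of its probes was not called.

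**Figure D3:**
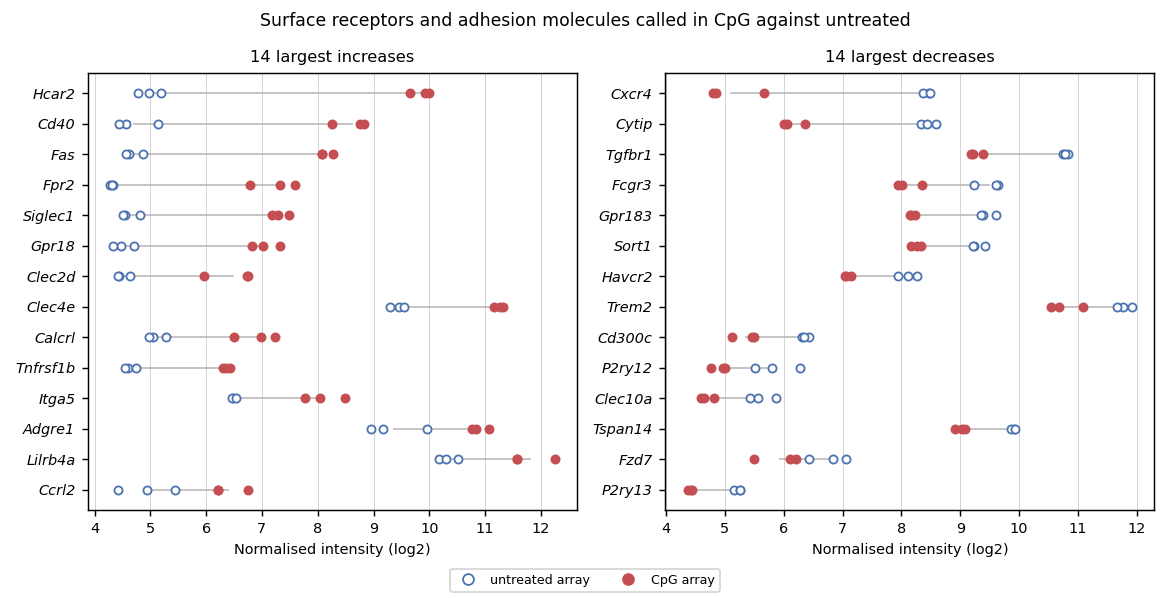
Log2 normalised intensity of the 14 surface receptor and adhesion genes with the largest increase (left) and the 14 with the largest decrease (right), among those called. Each point is 1 array, open for untreated and filled for CpG (3 each), and a grey line joins the group means. Cd40 rises from 5.14 or less on untreated arrays to 8.26 or more on CpG arrays, and Cxcr4 goes from 8.37 or more to 5.66 or less.

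In glucose metabolism the carrier Slc2a1 and the entry enzyme Hk2 rose, and downstream enzymes fell or did not pass the test. Of 31 measured genes of glucose uptake, glycolysis and lactate 3 rose and 5 fell. These shares, 9.68% and 16.1%, lay near the 10.0% and 15.3% over all genes. Slc2a1, the glucose carrier GLUT1, had levels of 10.50, 10.54 and 10.60 on the untreated arrays and 11.87, 11.60 and 11.92 on the CpG arrays. Every CpG array lay above every untreated array, and Slc2a1 rose by 1.25 ± 0.11 (adjusted p = 2.53e-06). Hk2, an inducible hexokinase, rose by 0.78 ± 0.10 (adjusted p = 6.35e-05). Pfkfb2, which sets the level of a sugar bisphosphate that activates glycolysis, fell by 0.70 ± 0.12, and Pygb, a glycogen phosphorylase, fell by 0.72 ± 0.14. Pfkm and Eno3, genes of glycolytic enzymes, also fell, and Eno3 lost its call in 8 of the alternative settings. The glycolytic genes Gapdh, Ldha and Pkm had log2 changes of -0.10 ± 0.10, -0.12 ± 0.09 and 0.11 ± 0.10 and did not pass the test.

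In the citric acid cycle and the respiratory chain the share of genes that fell was near or below the 15.3% over all genes, and the counts moved with single arrays. Of 33 measured genes of pyruvate use and the cycle 0 rose and 5 fell, with 2 that fell without untreated array 3 or CpG array 1 and 3 without untreated array 1, untreated array 2 or under median scaling. Slc25a10, the mitochondrial dicarboxylate carrier, had levels of 7.69, 7.67 and 7.78 on the untreated arrays and 6.77, 7.08 and 6.74 on the CpG arrays. There was no overlap between groups, and it fell by 0.85 ± 0.14 (adjusted p = 0.000605). Of 60 measured subunits of the respiratory chain and ATP synthase 0 rose and 5 fell, with a median log2 change of -0.15 against -0.06 over all genes. Under cyclic loess and under median scaling 0 fell, without untreated array 2 or CpG array 1 only 1 did, and without untreated array 1 or CpG array 2, 3 did. Atp5b, the catalytic ATP synthase subunit, had a log2 change of -0.00 ± 0.11. The itaconate synthase gene Acod1 was not analysed here.

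Nucleotide metabolism held both increases and decreases. Of 46 measured genes 5 rose and 6 fell. Cmpk2, a mitochondrial nucleotide kinase induced by interferon, had levels of 5.70, 5.42 and 5.14 on the untreated arrays and 9.01, 9.29 and 9.10 on the CpG arrays. The groups lay far apart, and Cmpk2 rose by 3.71 ± 0.19 (adjusted p = 7.79e-09). Upp1, uridine phosphorylase, had levels of 4.60, 4.64 and 4.53 on the untreated arrays and 8.48, 7.62 and 8.37 on the CpG arrays. No untreated array detected it, and Upp1 was at least 9.42-fold higher with CpG (adjusted p = 1.58e-08). Pnp, which splits purine nucleosides, rose by 1.25 ± 0.09 (adjusted p = 2.95e-07), and Samhd1, which degrades deoxynucleotides and restricts viruses, by 0.98 ± 0.10 (adjusted p = 7.49e-06). Among enzymes that supply DNA synthesis, Tk1, thymidine kinase, had levels of 10.63, 10.67 and 10.70 on the untreated arrays and 9.28, 9.41 and 9.26 on the CpG arrays. Values of the groups were fully separate, and Tk1 fell by 1.35 ± 0.09 (adjusted p = 1.53e-07), while another of its probes was not called. Dut, which removes deoxyuridine triphosphate, fell by 0.88 ± 0.15, and Prps2, which makes the ribose donor of nucleotides, fell by 0.89 ± 0.16.

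Genes of amino acid and cofactor use included several inducible enzymes, with 8 of 36 measured that rose and 4 that fell. Gch1, which makes the tetrahydrobiopterin that nitric oxide synthase needs, had levels of 9.51, 9.43 and 9.35 on the untreated arrays and 11.04, 11.10 and 11.14 on the CpG arrays. The lowest and highest arrays of the groups stayed apart, and Gch1 rose by 1.66 ± 0.13 (adjusted p = 5.34e-07). Odc1, the rate-limiting enzyme of polyamine synthesis, rose by 1.42 ± 0.10 (adjusted p = 2.06e-07), and Sat1, which acetylates polyamines, by 0.74 ± 0.11. Nampt, the NAD salvage enzyme, rose by 0.81 ± 0.17, and Cth, which makes cysteine, was at least 1.59-fold higher with CpG (adjusted p = 0.000213). Of 23 amino acid and peptide carriers 2 rose and 4 fell, or 2 without untreated array 3 or CpG array 3. The carrier shares, 8.70% and 17.4%, lay near the 10.0% and 15.3% over all genes. Slc7a11, the cystine importer that feeds glutathione synthesis, had levels of 6.65, 6.80 and 6.79 on the untreated arrays and 8.76, 8.27 and 8.65 on the CpG arrays. Without exception the CpG arrays were higher, and it rose by 1.81 ± 0.20 (adjusted p = 1.60e-05). Slc15a3, a lysosomal histidine and peptide carrier, rose by 2.11 ± 0.11 (adjusted p = 9e-09), and Slc6a6, the taurine carrier, fell by 0.71 ± 0.12.

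In redox and iron handling 7 of 51 measured genes rose and 8 fell, or 4 without untreated array 2 and 5 without untreated array 1, without CpG array 1 or under median scaling. The shares that rose and fell were 13.7% and 15.7%, against 10.0% and 15.3% over all genes. Sod2, mitochondrial superoxide dismutase, had levels of 11.96, 11.68 and 11.56 on the untreated arrays and 13.39, 13.29 and 13.27 on the CpG arrays. The groups did not overlap, and Sod2 rose by 1.59 ± 0.11 (adjusted p = 1.97e-07). Hmox1, which breaks down haem, rose by 1.43 ± 0.26 (adjusted p = 0.00103). Slc11a2, the iron importer, had levels of 7.17, 7.39 and 7.80 on the untreated arrays and 8.62, 8.73 and 8.65 on the CpG arrays. Slc40a1, the iron exporter ferroportin, had levels of 9.70, 9.62 and 9.64 on the untreated arrays and 8.64, 8.43 and 8.73 on the CpG arrays. Neither gene's groups overlapped. The importer rose by 1.21 ± 0.15 (adjusted p = 3.57e-05) and the exporter fell by 1.05 ± 0.12 (adjusted p = 2.23e-05). The ferritin heavy chain gene Fth1 had a log2 change of -0.07 ± 0.09 and did not pass the test.

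Among lipid genes, the list of fatty acid genes held a larger share that fell, 28.3%, than the 15.3% over all genes. Of 46 measured genes of fatty acid synthesis, oxidation and storage 5 rose, or 2 under median scaling, and 13 fell, with a median log2 change of -0.19. The fatty acid elongase gene Elovl6 had levels of 8.85, 8.74 and 9.02 on the untreated arrays and 7.92, 8.02 and 7.93 on the CpG arrays. No value was shared between the groups, and Elovl6 fell by 0.91 ± 0.11 (adjusted p = 4.31e-05). The desaturase genes Scd1, Scd2 and Fads1 changed by -0.90 ± 0.11, -0.78 ± 0.14 and -0.73 ± 0.10. Hilpda, a lipid droplet protein that blocks lipolysis, rose by 1.37 ± 0.15 (adjusted p = 1.68e-05). Of 29 sterol genes 5 fell, near the share over all genes, with 3 without untreated array 2 or CpG array 1 and 9 without untreated array 1. Lipa, the lysosomal acid lipase, fell by 1.07 ± 0.12 (adjusted p = 2e-05), and Cyp27a1, which makes an oxysterol ligand of LXR, fell by 0.98 ± 0.14 (adjusted p = 0.000158). The synthesis genes Hmgcs1 and Fdps had log2 changes of -0.38 ± 0.22 and -0.27 ± 0.15 and did not pass the test.

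Of 54 measured genes of phospholipids, sphingolipids and eicosanoids 10 rose and 12 fell. Among leukotriene genes, Alox5, which makes the leukotriene precursor from arachidonic acid, had levels of 7.80, 7.52 and 7.53 on the untreated arrays and 6.11, 6.30 and 6.23 on the CpG arrays. Ltc4s, leukotriene C4 synthase, had levels of 8.0, 8.09 and 7.85 on the untreated arrays and 6.43, 6.76 and 6.66 on the CpG arrays. In both genes all CpG arrays were lower. Alox5 fell by 1.41 ± 0.11 (adjusted p = 5.94e-07) and Ltc4s fell by 1.36 ± 0.13 (adjusted p = 3.96e-06). In the prostaglandin branch, Ptgs2 had levels of 4.51, 4.39 and 4.40 on the untreated arrays and 6.59, 7.67 and 5.98 on the CpG arrays, and no untreated array detected it. Agpat4, an acyltransferase of phosphatidic acid synthesis, rose by 1.91 ± 0.12 (adjusted p = 6.79e-08). Cerk, ceramide kinase, fell by 1.10 ± 0.10 (adjusted p = 2.53e-06), and Sgpp1, which dephosphorylates sphingosine phosphate, fell by 0.86 ± 0.12.

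Of 36 glycosyltransferase and sialyltransferase genes 3 rose and 9 fell. St6gal1, which caps glycans with sialic acid, had levels of 9.53, 9.47 and 9.56 on the untreated arrays and 7.26, 6.67 and 7.34 on the CpG arrays. All CpG arrays were lower. St8sia4, which builds polysialic acid, had levels of 10.20, 10.07 and 10.11 on the untreated arrays and 8.88, 8.81 and 9.11 on the CpG arrays. Levels with CpG were all below those without, and St8sia4 fell by 1.19 ± 0.10 (adjusted p = 1.35e-06). St3gal6, a sialyltransferase of another linkage, rose by 0.92 ± 0.10 (adjusted p = 2.08e-05).

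**Figure D4:**
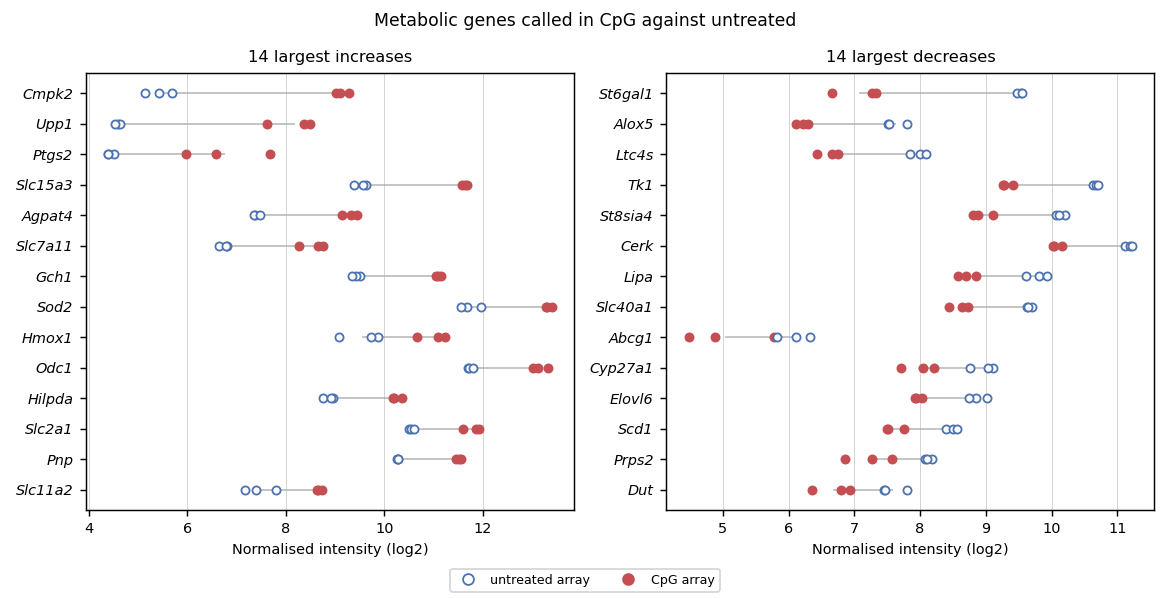
Log2 normalised intensity of the 14 metabolic genes with the largest increase (left) and the 14 with the largest decrease (right), among those called. Each point is 1 array, open for untreated and filled for CpG (3 each), and a grey line joins the group means. Cmpk2 lies between 5.14 and 5.70 on untreated arrays and between 9.01 and 9.29 on CpG arrays, and St6gal1 goes from 9.47 or more on untreated arrays to 7.34 or less on CpG arrays.

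Signalling genes that rose included feedback regulators. Of 53 measured ubiquitin pathway, TRAF, SOCS and TRIM genes 21 rose and 7 fell, and 3 fell under cyclic loess and under median scaling, with 2 to 4 when any array was left out. Socs3, which blocks receptors of the interleukin-6 family, had levels of 6.87, 6.18 and 6.32 on the untreated arrays and 11.35, 10.93 and 11.16 on the CpG arrays. The groups lay far apart, and Socs3 rose by 4.69 ± 0.17 (adjusted p = 2.51e-10). Tnfaip3, the gene of the ubiquitin editor A20, had levels of 5.52, 4.46 and 4.74 on the untreated arrays and 7.42, 8.0 and 7.82 on the CpG arrays. Detection in untreated cells was limited to 1 of 3 arrays, and Tnfaip3 rose by 2.84 ± 0.24 (adjusted p = 1.28e-06). Traf1, an adaptor of TNF receptors, rose by 3.36 ± 0.20 (adjusted p = 3.82e-08), and 2 of 3 untreated arrays detected it. Usp18, which removes the ubiquitin-like ISG15 and quenches interferon signalling, rose by 4.58 ± 0.12 (adjusted p = 9.87e-12), and Isg15 itself by 4.27 ± 0.16 (adjusted p = 3.99e-10). Usp2, a deubiquitinase with circadian expression, fell by 1.25 ± 0.14 (adjusted p = 1.45e-05).

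Of 64 kinases and scaffolds 18 rose and 9 fell, and of 39 phosphatases 12 rose and 7 fell. Irak3, the pseudokinase that damps Toll-like receptor signalling, had levels of 8.72, 8.26 and 8.28 on the untreated arrays and 10.41, 10.16 and 10.34 on the CpG arrays. Every CpG array lay above every untreated array, and Irak3 rose by 1.88 ± 0.15 (adjusted p = 7.42e-07). Irak2, a kinase that prolongs the same signalling, rose by 1.86 ± 0.17 (adjusted p = 2.83e-06). Ikbke, a kinase upstream of IRF factors, rose by 1.81 ± 0.19, and the stress-regulated kinases Sgk1 and Plk2 by 2.39 ± 0.16 and by 2.71 ± 0.16. Dusp2 and Dusp4, phosphatases of ERK and related kinases, rose by 2.38 ± 0.12 (adjusted p = 6.59e-09) and by 2.13 ± 0.14 (adjusted p = 9.44e-08). Dusp16 and Dusp1, which act chiefly on JNK and p38, rose by 1.72 ± 0.12 and by 1.04 ± 0.18. Map2k6, which activates p38, was detected on untreated arrays alone and was at least 1.73-fold lower with CpG (adjusted p = 0.000407), while another of its probes was not called. Among 21 genes of mRNA decay 5 rose and 4 fell, with 1 that fell under median scaling or without untreated array 2 and 2 without CpG array 1. Zc3h12a, the RNase Regnase-1 that degrades cytokine messages, rose by 3.05 ± 0.18 (adjusted p = 4.35e-08), and Zfp36, tristetraprolin, by 2.63 ± 0.10 (adjusted p = 5.55e-10). Tia1, an RNA-binding protein of stress granules, fell by 0.48 ± 0.12 (adjusted p = 0.00786).

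Of 57 genes of small GTPases and their regulators 11 rose, or 4 under median scaling, and 12 fell. Arhgef3, a RhoA exchange factor, rose by 2.46 ± 0.15 (adjusted p = 4.87e-08), and the GTPase gene Rhoc by 2.08 ± 0.20 (adjusted p = 5.09e-06). Agap1, an ARF GTPase-activating protein of endosomal traffic, had levels of 8.91, 8.60 and 8.35 on the untreated arrays and 6.59, 6.76 and 6.28 on the CpG arrays. All CpG arrays were lower.

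Of 47 measured secreted mediators 30 rose and 7 fell, with a median log2 change of 1.31, or 1.22 with undetected genes at their bounds. These 47 are the members that passed the detection filter, of 85 with a probe. Of the 47, 12 were detected on all 3 CpG arrays and on no untreated array. Il1a, the gene of interleukin-1 alpha, had levels of 4.40, 4.40 and 4.33 on the untreated arrays and 9.95, 8.55 and 9.13 on the CpG arrays. CpG array 1 was the highest and CpG array 2 the lowest of the 3 that detected it, and Il1a was at least 19.5-fold higher with CpG (adjusted p = 6.36e-09). The macrophage inflammatory protein genes Ccl3 and Ccl4 rose by 4.68 ± 0.16 (adjusted p = 1.97e-10) and by 4.28 ± 0.15 (adjusted p = 2.40e-10), and Ccl12, a paralog of Ccl2 whose probe may share its signal, was at least 8.54-fold higher with CpG (adjusted p = 3.70e-11). Pdgfa, a growth factor gene, fell by 1.10 ± 0.18 (adjusted p = 0.00053), and Grn, the gene of progranulin, fell by 0.54 ± 0.11. Of 41 antimicrobial, acute-phase and protease genes 14 rose and 3 fell. Lcn2, which starves bacteria of iron, was at least 6.96-fold higher with CpG (adjusted p = 1.93e-08). Plaur, the urokinase receptor, rose by 2.77 ± 0.15 (adjusted p = 1.66e-08), and its ligand gene Plau fell by 0.86 ± 0.11 (adjusted p = 5.92e-05). Igtp, an interferon-induced GTPase, rose by 2.72 ± 0.12 (adjusted p = 2.07e-09).

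Genes of DNA replication and repair had the highest share of decreases among the lists in the plot of list shares. Of 57 measured genes of DNA replication and repair 0 rose and 39 fell, with a median log2 change of -0.49. The number that fell was 28 under median scaling, 33 under cyclic loess and 30 to 38 when any array was left out. Gins3, a subunit of the replicative helicase complex, had levels of 8.23, 7.92 and 7.86 on the untreated arrays and 6.69, 6.65 and 6.76 on the CpG arrays. There was no overlap between groups, and Gins3 fell by 1.30 ± 0.12 (adjusted p = 4.08e-06). Clspn, the checkpoint adaptor claspin, fell by 1.05 ± 0.10 (adjusted p = 2.74e-06), Rad54l, a recombination motor, fell by 1.06 ± 0.11 (adjusted p = 6.26e-06), and Mcm7, a subunit of the helicase ring, fell by 0.87 ± 0.12 (adjusted p = 0.000172). Among those that did not pass the test were Tipin (-0.25 ± 0.12), which steadies the fork, and Mcm6 (-0.47 ± 0.17) and Orc6 (-0.15 ± 0.09), subunits of the helicase and of the origin recognition complex.

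Of 22 genes of G1 cyclins, their kinases and inhibitors 4 rose and 5 fell, or 3 without CpG array 3. Cdkn1a, the cyclin-dependent kinase inhibitor p21, had levels of 9.55, 9.55 and 9.44 on the untreated arrays and 10.56, 10.52 and 10.41 on the CpG arrays. Values of the groups were fully separate, and it rose by 0.98 ± 0.10 (adjusted p = 7.58e-06). Gadd45a and Gadd45b encode stress sensors that slow the cell cycle. Gadd45a was at least 2.78-fold higher with CpG (adjusted p = 9.59e-07), and Gadd45b rose by 1.55 ± 0.12 (adjusted p = 4.92e-07). Ccne2, cyclin E2, fell by 0.75 ± 0.14 (adjusted p = 0.00129). Cdk1 had a log2 change of 0.01 ± 0.13 and did not pass the test. Genes of the clustered H2A histones, which are alike in sequence so that their probes may share signal, were among the 25 largest decreases of all genes. H2ac11 changed by -1.82 ± 0.24, H2ac15 by -1.68 ± 0.24 and H2ac21 by -1.55 ± 0.25.

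Cell death genes moved both ways. Of 41 measured BCL2 family, caspase and inflammasome genes 11 rose and 6 fell. Bcl2l11, the gene of the death-promoting protein BIM, had levels of 6.13, 5.85 and 6.36 on the untreated arrays and 8.83, 8.57 and 8.56 on the CpG arrays. The lowest and highest arrays of the groups stayed apart, and it rose by 2.54 ± 0.14 (adjusted p = 1.36e-08). Bcl2l1, which encodes the protective BCL-XL, rose by 1.16 ± 0.15 (adjusted p = 5.85e-05). Bcl2a1d, a protective member with near-identical copies, was at least 4.19-fold higher with CpG (adjusted p = 3.15e-07). Casp4, the caspase that senses intracellular lipopolysaccharide in mice, had levels of 6.87, 6.60 and 6.86 on the untreated arrays and 9.22, 9.40 and 9.42 on the CpG arrays. Without exception the CpG arrays were higher, and it rose by 2.57 ± 0.12 (adjusted p = 5.18e-09). Casp2, a caspase that promotes cell death, fell by 0.56 ± 0.10 (adjusted p = 0.00123). Casp1, the inflammasome caspase, did not pass the test (0.28 ± 0.11). Ddx58, which encodes the viral RNA sensor RIG-I, rose by 3.52 ± 0.16 (adjusted p = 2.57e-09), and Dhx58, a related helicase, by 3.04 ± 0.19 (adjusted p = 7.80e-08), with 2 of 3 untreated arrays that detected it.

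Of 51 genes of actin and the phagocyte cytoskeleton 13 rose and 4 fell. Without untreated array 1, untreated array 2 or CpG array 1, 8 rose, and under median scaling 5 did. Marcksl1, a membrane-bound actin regulator, had levels of 9.39, 8.45 and 8.35 on the untreated arrays and 11.56, 12.12 and 11.03 on the CpG arrays. The groups did not overlap, and Marcksl1 rose by 2.84 ± 0.30 (adjusted p = 1.08e-05). Myo1f, an unconventional myosin of leukocytes, fell by 1.25 ± 0.15 (adjusted p = 4.34e-05). Among 55 channels and membrane carriers 10 rose, or 6 under median scaling, and 9 fell. Slc28a2, a concentrative nucleoside carrier, rose by 2.73 ± 0.13 (adjusted p = 3.83e-09), and Slc31a2, a copper carrier, by 1.83 ± 0.25 (adjusted p = 0.000107). Slc29a1, an equilibrative nucleoside carrier, fell by 0.59 ± 0.13 (adjusted p = 0.0035).

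Some transcripts were seen with CpG and not without it. Of all 25697 probes, 144 were detected on all 3 CpG arrays and on 0 of 3 untreated arrays, and 71 showed the reverse. The 144 probes comprised 133 probes of 119 named genes and 11 without a gene symbol, and 29 of the genes had another probe that was detected in untreated cells. Their bounds had a median of at least 1.75-fold, and 62 probes were at least 2-fold higher. For the 71 reverse probes the median bound was 1.26-fold, and 4 were at least 2-fold. At a stricter detection p of 0.01 with over 0.05 on every array of the other group, 88 and 14 probes remained in the 2 sets. The reverse set held 102 probes without CpG array 1, and over 1.5 times its size without any other array, from 110 without CpG array 3 to 143 without CpG array 2. Leaving out an array loosens the detection rule, so that such a set can only grow. In cells given gefitinib without CpG, 105 of the 144 probes were detected on 0 arrays and 2 on all 3. In cells given CpG after gefitinib, 101 were detected on 0 arrays and 5 on all 3. Of the 71 reverse probes, 45 were detected on all 3 gefitinib arrays and 48 on all 3 arrays of CpG after gefitinib.

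Beyond the cytokines and the receptors described above, the genes seen with CpG alone covered interferon effectors, traffic and enzymes. Mx2, an interferon-induced antiviral GTPase, had levels of 4.50, 4.49 and 4.32 on the untreated arrays and 8.08, 7.91 and 7.88 on the CpG arrays. The groups lay far apart, and Mx2 was at least 8.18-fold higher with CpG (adjusted p = 3.01e-11). Ehd1, which drives recycling of endocytosed receptors, had levels of 4.90, 4.84 and 4.88 on the untreated arrays and 7.47, 7.61 and 7.58 on the CpG arrays. The CpG arrays all lay above the untreated arrays, and Ehd1 was at least 6.20-fold higher with CpG (adjusted p = 1.34e-09). Cd69, an early activation antigen of leukocytes, had levels of 4.31, 4.65 and 4.69 on the untreated arrays and 7.05, 7.55 and 7.54 on the CpG arrays, and was at least 5.49-fold higher with CpG (adjusted p = 1.33e-08). Ifi202b, a DNA-binding interferon-induced gene with close relatives that may share its probe's signal, was at least 17.2-fold higher with CpG (adjusted p = 7.80e-11). Cstdc4, a member of the stefin family of protease inhibitors, had levels of 4.35, 4.39 and 4.46 on the untreated arrays and 8.39, 6.65 and 7.48 on the CpG arrays. CpG array 1 was the highest and CpG array 2 the lowest of its group, and Cstdc4 was at least 5.99-fold higher with CpG (adjusted p = 4.08e-06). Gstt4, a glutathione transferase gene, was at least 4.59-fold higher with CpG (adjusted p = 2.74e-06).

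In the reverse set, Klhl30, a kelch-like gene, had levels of 6.35, 6.47 and 6.27 on the untreated arrays and 4.63, 4.54 and 4.75 on the CpG arrays. No CpG array detected it, and Klhl30 was at least 2.71-fold lower with CpG (adjusted p = 8.16e-08). Ranbp3l, which encodes a nuclear export factor, had levels of 6.20, 6.31 and 6.55 on the untreated arrays and 4.45, 4.38 and 4.56 on the CpG arrays. Its groups did not overlap either, and it was at least 2.69-fold lower with CpG (adjusted p = 9.62e-07). The zinc finger gene Zfp30 was at least 2.00-fold lower with CpG (adjusted p = 0.00257), and Fam13c at least 1.89-fold lower with CpG (adjusted p = 0.00887). Pdp1, a phosphatase that activates pyruvate dehydrogenase, was at least 1.48-fold lower with CpG (adjusted p = 0.00202).

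**Figure D5:**
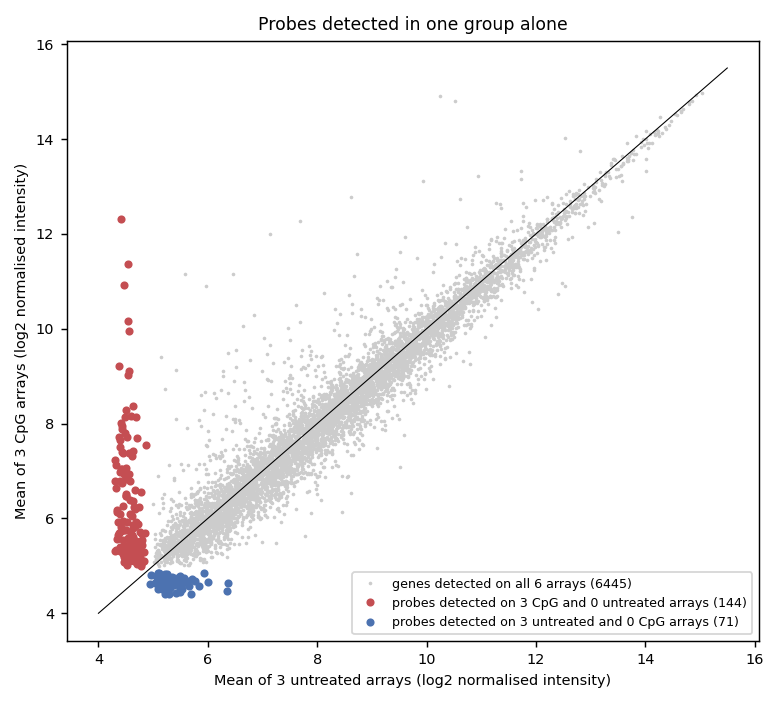
Mean log2 normalised intensity of 3 untreated arrays (horizontal) against 3 CpG arrays (vertical). Grey points are the 6445 genes whose tested probe was detected on all 6 arrays, red points the 144 probes detected on the CpG arrays and no untreated array, and blue points the 71 probes with the reverse pattern. The line marks equal levels, and each point is read by its distance from it. Il1b, the red point farthest above the line, goes from 4.41 to 12.31, and Klhl30, a blue point, from 6.36 to 4.64.

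Probes without a gene symbol were tested apart from the named genes. Of 694 such probes kept, 11.2% rose (78) and 12.1% fell (84). Under median scaling the counts were 39 and 53, and without untreated array 2, 51 rose. The largest increase was that of ILMN_1226639, by 2.76 ± 0.17, and the largest decrease that of ILMN_2832641, by -1.90 log2 units.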

How the data were processed

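Total RNA of 12 RAW264.7 cultures was hybridised to Illumina bead arrays, and the 3 arrays of CpG and the 3 of untreated cells are described here. Per the file headers, the deposited signal of each bead type is a linear intensity without normalization, and a detection p-value accompanies it. GenomeStudio 2010.2 is the software named in the submitters' processing notes. The authors' deposited value table, which holds quantile-normalized intensity of the same arrays, was used as an alternative.

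The neqc function of limma 3.58.1 (R 4.3.3) corrected the background by normexp through the detection p-values, added an offset of 16, normalized by quantiles and took log2. Of 25697 probes, 23978 had 1 gene symbol in the platform annotation, 0 had several and 1719 had none listed. Detection (p under 0.05) on 3 or more of the 12 arrays was required, which kept 11977 probes, and each gene was read from its brightest kept probe on average (8101 genes). Several probes were kept for 2222 genes, and of the 625 called among these, 383 had another probe that was not called and 3 a probe called the other way. All 12 arrays entered 1 linear model of 4 group means (lmFit and eBayes, 8 residual and 5.07 prior degrees of freedom), and p-values were adjusted over all genes by Benjamini-Hochberg. The number of arrays limits the precision, with a median standard error of 0.14 log2 units.

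For a probe undetected in a group, the limit divides the other group's mean by a floor, averaged over arrays, that is the larger of the probe's value and that array's dimmest detected value. The members and gene lists were chosen with earlier results of these data known. Genes eligible to be named, of which a part is described, followed a rule: per list up to 6 called members with the largest change each way, the 3 brightest not called and every member of lists with at most 12, besides the 25 largest increases and decreases of all genes and the brightest of those detected in 1 group. Untreated and CpG arrays of the same replicate number did not deviate together (correlations of deviations 0.07, -0.15 and 0.13). The number was not used as a block in the reported fit. Promoters come from RefSeq (GRCm38.p6). Alternatives covered the normalization, background, filter, probe choice, arrays in the fit, replicate block and leaving out each array, and list counts were also recomputed without each array, chosen after seeing the data.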

Additional observations from a re-analysis of the deposited data

How the results depend on the processing

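Of 541 named genes recomputed under the alternatives, 404 were called, and 104 of these lost the call in at least 1 setting, 80 of them when an array was left out. Of 8091 such values, 7544 kept direction and side of the threshold, 457 lost and 87 gained the call and 3 turned: Mmp13 was at -0.021 without background correction and -0.024 in the authors' deposited table, and Prkd3, not called as reported, at 0.33 with the mean of its probes. Under median scaling 485 genes rose, and unnamed probes that rose and fell numbered 39 and 53. Without background correction 149 genes rose and 29 fell at least 2-fold, and 158 rose and 36 fell so in the authors' deposited table. Values of both tables carry the background, so a fold of a dim probe is smaller there. At the stricter detection threshold 88 probes were detected with CpG alone and 14 in untreated cells alone. Leaving out each array in turn gave 663 to 787 genes that rose, 967 to 1177 that fell, 265 to 275 and 119 to 133 with at least 2-fold changes, 51 to 66 and 64 to 72 unnamed probes, and 167 to 211 and 102 to 143 probes detected in 1 group alone. Sets of probes detected in 1 group alone can only grow this way, since fewer arrays must meet the rule. The labels do not say whether replicate numbers pair the samples. With a replicate block 888 genes rose and 1426 fell, against 813 and 1241 as reported. List counts moved by over 1.5 times in 103 of 918 recomputations. The number of arrays and signal near background limit what could be called, and 58 genes were undetected on all 6 arrays.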
